A study of Capra hircus with 2 samples.

Results

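Small RNA tags of 26 to 30 nucleotides (nt) are the longest abundant class in these goat (Capra hircus) mammary gland libraries, above the length of a miRNA. They were chosen by length alone: every distinct tag of 26 to 30 nt was kept, with its read count. The lactation library held 79531 such tags with 833947 reads, and the involution library 54686 with 243443 reads. Over both libraries there were 123212 distinct tags of this length out of 504338 of any length. The lactation library came from the gland on day 10 after parturition, and the involution library from goats force-weaned at late lactation and sampled on day 5 of weaning, which was day 218 from parturition. Each library was made from the mixed RNA of 5 goats, whose breed, age and genotype the labels do not give, so the spread between animals is unknown. With 1 library per stage there is no replicate check and no test between stages, and weaning cannot be told apart from the time since parturition. The tissue is whole mammary gland, in which fewer cells of a type and less RNA per cell cannot be told apart.

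Several kinds of RNA leave fragments of this length. Box C/D small nucleolar RNAs (snoRNAs) guide the ribose methylation of ribosomal RNA and carry a box C near the 5' end, a box D near the 3' end and often a second pair of boxes inside. Transfer RNAs end in CCA and are cut in the anticodon or T loop into long and short fragments, and ribosomal RNA, the bulk of cellular RNA, sheds many pieces.

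Tags were grouped into families that share an exact run of 18 bases with their most abundant tag, the seed, and families are numbered by their summed level. No goat genome or RNA sequence was used here. A name given below to the letters of a seed comes from general knowledge of mammalian RNAs and was not matched to a goat sequence. The first set shows seeds with box D letters near the end, most of them lower in involution (families 96 and 286 were not), with CTGA near the 3' end and, where present, the box C core TGATG near the 5' end in capitals. Sequences run 5' to 3', with T for U.

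Family 1: gcgggTGATGcgaactggagtCTGAgt
Family 5: ccccgTGATGgaactgaggatCTGAgg
Family 6: ttaacatgttgacaagtctaactCTGAag
Family 9: aaaaaTGATGtcatcttactaCTGAga
Family 14: cgctgtgctgattgtcatgttCTGAtt
Family 27: caaagTGATGataaagtatatCTGAgg
Family 66: ctgaaTGATGatatcccactaaCTGAgc
Family 96: tggataTGATGactgattatCTGAga
Family 154: tgagcatgtagacaaaggtaacaCTGAag
Family 207: aatgtgtgactgaaaggtattttCTGAgc
Family 269: ctggaTGATGataagcaaatgCTGAct
Family 270: gaaaaTGATGaattctggggcgCTGAtt
Family 286: agtctgTGATGaattgctttgacttCTGAc

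The second set shows abundant seeds without such an end (families 2, 3, 4 and 8) and some that were higher in involution, chosen after their ratios were seen (families 11, 155, 179 and 72). Their letters are known from 28S ribosomal RNA (families 2 and 3), 18S ribosomal RNA (families 4, 11, 155 and 179) and miR-451 (family 72), and family 8 is left unnamed.

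Family 2: aacaatgtaggtaagggaagtcggca
Family 3: agaggtgtagaataagtgggaggccc
Family 4: gataacgaacgagactctggcatgct
Family 8: cggcggcggcggcgactctggacgcgag
Family 11: acggccctggcggagcgctgagaagacg
Family 155: taggtgaacctgcggaaggatcatta
Family 179: tacctggttgatcctgccagtagcata
Family 72: aaaccgttaccattactgagtttagt

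The third set shows 5 of the seeds with tRNA-like letters, with a CCA end in capitals. The letters of family 39 are known as the 5' end of glycine tRNA, those of family 163 as the 5' part of lysine tRNA and those of family 238 as the 3' end of aspartate tRNA.

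Family 39: gcattggtggttcagtggtagaattctc
Family 163: ccggatagctcagtcggtagagcatcaga
Family 168: ccagggttcaggtccctgttcgggcgCCA
Family 229: cgggttcgtttcccggtcagggaaCCA
Family 238: ggggttcgattccccgacggggagCCA

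Tags of 26 to 30 nt took 4.63% of clean tags in lactation (95% exact Clopper-Pearson interval 4.62 to 4.64%) and 3.30% in involution (3.28 to 3.31%). Levels are in TPM, here tags (not transcripts) per 1000000 clean tags, from 18031615 clean tags in lactation and 7385833 in involution. Together the tags stood at 46249 TPM in lactation and 32961 TPM in involution, 1.40-fold lower in involution (95% interval 1.40 to 1.41). All intervals cover counting error only. No molecular identifier marks PCR copies, and how far a pair of preparations of the same pool would differ is unknown. Without family 1 the ratio of involution to lactation was 0.818 in place of 0.713.

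The difference depended on the length. At 26 nt the level was 9569 TPM in lactation and 14282 TPM in involution, 1.49 times higher in involution (1.48 to 1.50). At 27 nt it was 18960 against 10429 TPM, 1.82-fold lower in involution (1.80 to 1.83). Tags of 28 nt fell from 10905 to 4746 TPM and tags of 29 nt from 5034 to 2179 TPM, which is 2.30-fold and 2.31-fold. At 30 nt the levels were 1781 and 1325 TPM. Within this range lactation had its highest level at 27 nt and involution at 26 nt, its shortest length. Tags of 25 nt, outside the range, stood at 10456 TPM in lactation and 19182 TPM in involution. A single tag, the seed of family 1, made up 35.8% of the 27 nt reads in lactation and 12.5% in involution. Without family 1 the 27 nt level was 11903 TPM in lactation, still above its 9239 TPM at 26 nt. Just outside the length range, the 25 nt tags were 1.83 times higher in involution and tags of 31 nt were 0.767 times their lactation level.

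**Figure D1:**
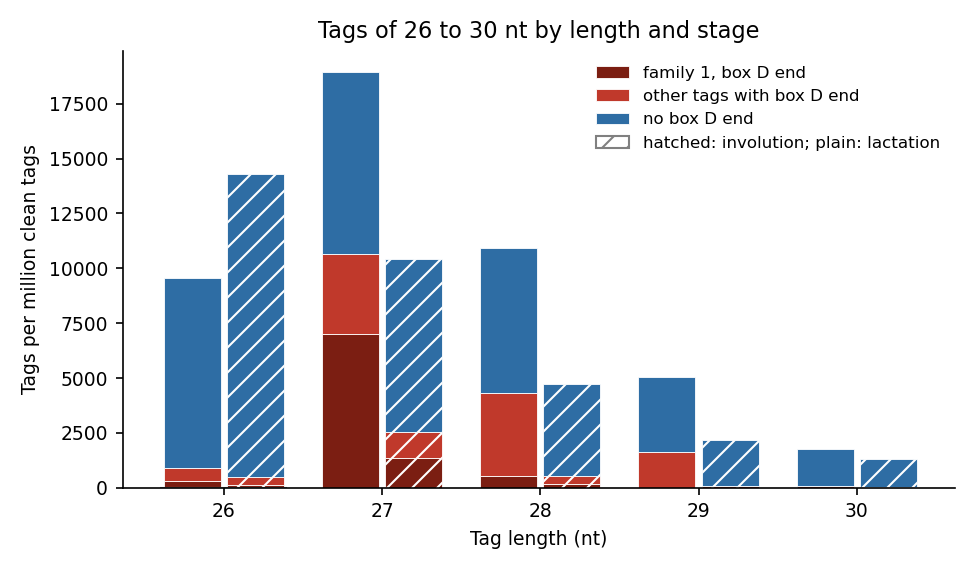
Level of tags of 26 to 30 nt (TPM, vertical axis) by length (nt, horizontal axis) in lactation (plain bars) and involution (hatched bars), split into tags of family 1 with box D letters within the last 8 bases, other tags with that end, and tags without it. At 27 nt the 2 box D shares together made up 56.2% of the lactation bar and 24.4% of the involution bar.

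Tags with box D letters near the end had the lowest ratios at 27 to 29 nt. Those of 27 nt stood at 10658 TPM in lactation and 2548 TPM in involution, those of 28 nt at 4310 and 547.7 TPM, and those of 29 nt at 1647 and 89.5 TPM. The ratios of involution to lactation were 0.239, 0.127 and 0.0543 in that order. The ratio was nearer to 1 at both ends of the range, 0.557 at 26 nt (889.6 and 495.5 TPM) and 0.540 at 30 nt (74.0 and 39.9 TPM). Tags with neither that end nor the adaptor run described below had ratios of 1.56 at 26 nt, 0.923 at 27 nt, 0.596 at 28 nt, 0.542 at 29 nt and 0.623 at 30 nt.

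The first base set these tags apart from miRNA-sized ones. Among tags of 18 to 25 nt, 80.5% of lactation reads and 74.2% of involution reads began with T, the usual first base of a miRNA as U in the RNA. Among tags of 26 to 30 nt, T led 22.7% and 19.5% of reads. In lactation G was the commonest first base, at 30.8% of reads, followed by A at 24.3% and C at 22.3%. In involution it was C, at 30.2%, followed by A at 26.2% and G at 24.2%. The G share rested on family 1: without it G led 18.0% of lactation reads and 20.8% of involution reads. Over distinct tags, each counted once, the bases lay between 21.6% and 28.0% in both libraries.

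Most reads came from nested forms of the same RNA. Of lactation reads 87.6%, and of involution reads 72.8%, belonged to tags that lay wholly inside a longer tag of 26 to 30 nt. The first 18 bases were shared with another tag of this length for 93.1% and 79.9% of reads, and the last 18 bases for 92.7% and 78.9%. Partners were sought within each library, and lactation had 2.44 times the clean tags of involution. How far depth accounts for the difference in these shares was not tested. Most distinct tags were rare, with 68.8% in lactation and 65.2% in involution seen as 1 read. In both libraries occurred 8.93% of the distinct tags, and they held 84.2% of lactation reads and 73.2% of involution reads. The shared part was 13.6% for tags of 18 to 25 nt and 2.54% for tags of 31 to 44 nt, so a low overlap was not particular to this length.

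Grouping gave 56185 families, of which 48304 were single tags. A level of 10 TPM in at least 1 library was reached by 329 families, which held 90.1% of lactation reads and 77.4% of involution reads. At that bound, family 279 lay just inside with 10.2 TPM in its higher library and family 329 just outside with 9.88 TPM. To be called, a family needed a ratio of involution to lactation of at least 2 (higher) or at most 0.5 (lower), with the whole interval beyond 1. By this rule 80 of the 329 families were higher (24.3%), 96 were lower (29.2%) and 153 were neither. Among 4132 distinct tags of any length from 18 to 44 nt that reached the same level, 31.6% were higher and 15% were lower. Scaling moved this split. Factors by median of ratios, which shifted every log2 ratio by -0.36, gave 48 of 301 families higher (15.9%) and 134 lower (44.5%). Scaling to the tags of 26 to 30 nt alone shifted them by 0.49 and gave 140 higher (37.0%) and 59 lower (15.6%) of 378 families.

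**Figure D2:**
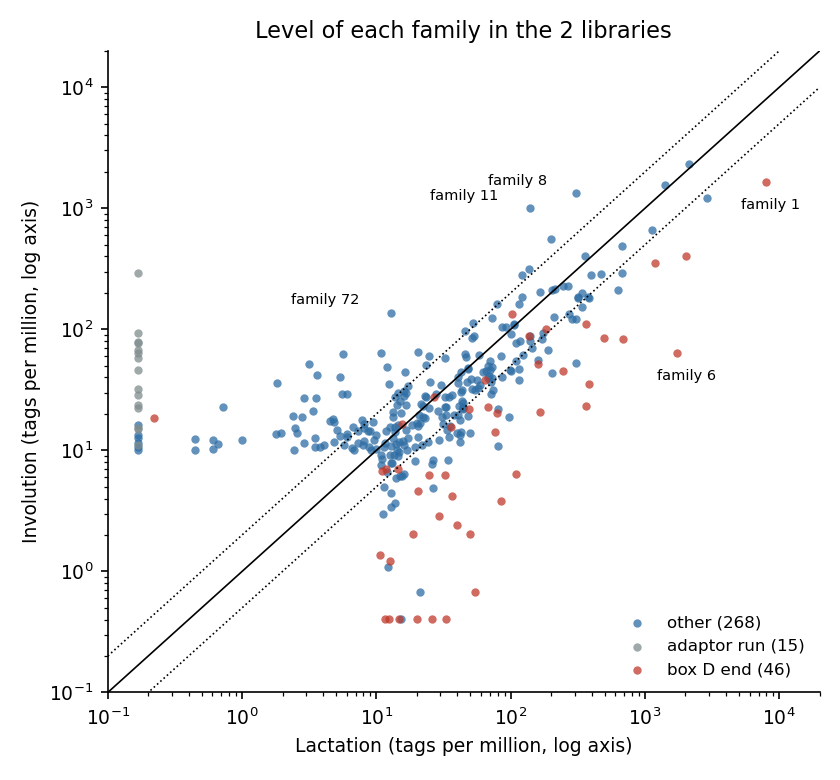
Level of each of the 329 families in lactation (horizontal axis) and involution (vertical axis), both in TPM on log axes, coloured by box D end, adaptor run or neither, with the line of equal level and dotted lines at 2-fold. Levels under 3 counts are drawn at 3 counts. Families with a box D end lie mostly below the lower dotted line, at a median ratio of 0.184, and families with the adaptor run lie at the left edge.

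Families with the box D letters CTGA within the last 8 bases of the seed numbered 46, and 37 of them were lower in involution (80.4%), against the 29.2% of all families. The remaining box D end families were 8 that were neither and 1 that was higher, family 286. Summed, the 46 families fell from 17260 TPM in lactation to 3492 TPM in involution, 4.94-fold (4.88 to 5.01). Their median ratio was 0.184, against 0.796 for all 329 families and 0.891 for the 268 families with neither a box D end nor the adaptor run. Of those 268, 64 were higher and 59 were lower. The box D pattern did not rest on family 1: without it 36 of 45 families were lower, with a median ratio of 0.183. With median-of-ratios factors 41 of 46 were lower, and with scaling to the tags of 26 to 30 nt alone 34 of 46.

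Family 1 was the most abundant of all, at 7928 TPM in lactation and 1635 TPM in involution, 4.85-fold lower (4.76 to 4.94). It held 17.1% of the lactation reads of this length and 4.96% of the involution reads. Family 5 stood at 2030 TPM in lactation and 403.1 TPM in involution, 5.04-fold lower (4.85 to 5.23). Family 6, which has the box D letters but no TGATG, stood at 1745 TPM in lactation and 63.2 TPM in involution, 27.6-fold lower (25.2 to 30.3). The intervals of families 1 and 5 overlapped, and that of family 6 lay far from both.

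Family 9 was 3.35-fold lower (3.22 to 3.49), at 1179 TPM in lactation and 351.8 TPM in involution. Family 14 was 8.30-fold lower (7.65 to 9.01), at 685.1 and 82.6 TPM. Family 27, the most abundant seed with the full box C letters TGATGA and a later box D, was 3.29-fold lower at 365.4 and 111.2 TPM. The next such seed, family 66, stood at 164.8 and 20.7 TPM, 7.96-fold lower. Family 96 also has both sets of letters and stood at 64.8 and 38.0 TPM, a ratio of 0.587 that misses the call. The letters of family 269 are known from the start of SNORD44, a box C/D snoRNA, and it stood at 18.6 TPM in lactation and 2.03 TPM in involution. Family 269 was named after its values were seen.

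The families with the lowest ratios were nearly all of this kind. Of 6 chosen by rule, 5 had a box D end: families 6, 154, 207, 233 and 270. Family 154 had 977 lactation reads and 5 involution reads, 80.0-fold lower (34.2 to 247.0), and with lengths of 25 to 31 nt its ratio was 0.0275 in place of 0.0125. Family 207 had 598 reads and 1 read, a ratio of 0.00408 (0.000103 to 0.0228). With a shared run of 16 bases in place of 18, the family that holds the seed of family 207 had a ratio of 0.159, and with tags of at least 2 reads its ratio was 0.0125. Family 270 had 362 reads and 3 reads, a ratio of 0.0202 that was 0.0332 with lengths of 25 to 31 nt. Family 233 differs from the seed of family 1 by A14C, counted from the 5' end of the seed of family 1, and had 465 reads in lactation and 0 in involution, at least 63.5-fold lower against a floor of 3 counts in the involution library (51.4-fold at the lower end of the ratio's interval). The one without a box D end, family 258, stood at 21.2 and 0.677 TPM. In all, 16 of the 46 box D end families were more than 10-fold lower.

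Most exceptions were short. Of 9 box D end seeds of 26 nt, 2 were lower (22.2%) and 7 were neither, with a median ratio of 0.599, and the share lower was near the 20.9% (32 of 153) among seeds of 26 nt without the end and without the adaptor run. Of 37 seeds of 27 to 30 nt, 35 were lower, against 27 of 115 among families of those lengths without the end and without the adaptor run. Among the seeds of 26 nt, the letters of families 44 and 210 are known from 28S and those of family 53 from 18S ribosomal RNA, which are not snoRNAs. The 1 box D end family that was higher, family 286, had 4 reads in lactation and 136 in involution, 83.0 times higher (31.7 to 309.0).

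CTGA near the end sat mostly 2 bases from the 3' end. TGATG, where the same reads held it, began mostly after 5 or 6 bases. Of reads with CTGA within the last 8 bases, 93.1% in lactation and 83.4% in involution had exactly 2 bases after it. TGATG began after exactly 5 bases in 57.1% and 61.2% of those reads. Without family 1 the shares with 2 bases after CTGA were 90.7% and 75.2%, and the shares with TGATG after 5 bases were 28.8% and 40.4%. No TGATG was present in 53.8% of these lactation reads and 49.0% of these involution reads. Over all reads of 26 to 30 nt, 38.0% in lactation and 11.3% in involution had CTGA within the last 8 bases. The same letters read backwards, AGTC, occurred there in 4.09% and 6.77% of reads, and CTGA on the reverse complement in 0.586% and 1.09%. Counted over distinct tags, 5.35% had CTGA in this window and 2.01% had AGTC. A match describes letters and does not show a site or an RNA class, and whether CTGA is the box D at the end of a snoRNA or its internal copy was not determined.

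**Figure D3:**
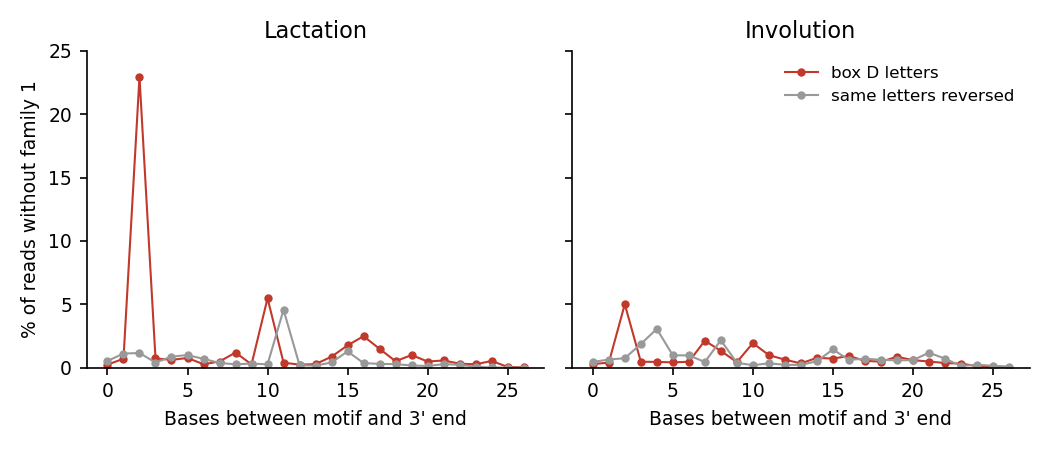
Share of reads of 26 to 30 nt without family 1 (percent, vertical axis) that hold the box D letters (red) or the same letters reversed (grey), by the number of bases between the motif and the 3' end (horizontal axis), for each library. The box D letters peak at 2 bases from the end, at 22.9% of lactation reads and 5.02% of involution reads, and the reversed letters stand there at 1.17% and 0.759%.

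Box D end families had sharp ends. In the median box D end family the commonest 3' end took 95.1% of lactation reads and 93.9% of involution reads, and the commonest 5' start took 75.1% and 86.5%. In the 268 families without that end or the adaptor run the medians were 32.7% and 32.5% for the 3' end and 29.9% and 30.6% for the start. Box D end families also had few shorter forms. Of their reads of 18 to 30 nt, the median share at 18 to 25 nt was 2.17% in lactation and 10.4% in involution, against 68.8% and 77.9% in the 268 families. In 12 box D end families the short forms reached 10 TPM, and there none was lower, 1 was higher and 11 were neither. The median ratio was 0.982 for the short forms and 0.578 for the long forms of the same families. For the long forms of all 46 box D end families it was 0.184, so these 12 do not stand for the class. In 255 of the 268 families the short forms reached that level, and 80 were higher, 5 lower and 170 neither, with median ratios of 1.42 for the short and 0.891 for the long forms. The ratio was greater for the short forms in 11 of the 12 and in 206 of the 255.

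Many box D end families carried 2 start forms, in most cases 1 base apart, and the longer start often took a smaller share of reads in involution. In 32 families both libraries had at least 20 reads over the 2 commonest starts. The share of the longer start was lower in involution in 17 families, higher in 1 and within overlapping intervals in 14. In family 5 the longer start took 54.0% of reads in lactation (53.5 to 54.5%) and 15.9% in involution (14.6 to 17.2%). In family 6 it took 51.6% (51.1 to 52.2%) and 10.1% (7.54 to 13.2%), and in family 14 it took 32.7% (31.9 to 33.5%) and 5.10% (3.49 to 7.16%). Family 1 went the other way, with 6.97% in lactation (6.84 to 7.10%) and 10.9% in involution (10.4 to 11.5%). Mean length was shorter in involution in 32 of 33 box D end families with 20 reads in both libraries, and also in 218 of 252 families without that end or the adaptor run. The deposited filtering logs show more short inserts in the involution library as a whole. Reads under 18 nt were 4.14% of high-quality reads in involution and 0.920% in lactation, and reads with no insert were 7.73% and 0.945%. For the length profile, mean lengths and start forms, a difference between libraries cannot be told apart from one between stages.

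**Figure D4:**
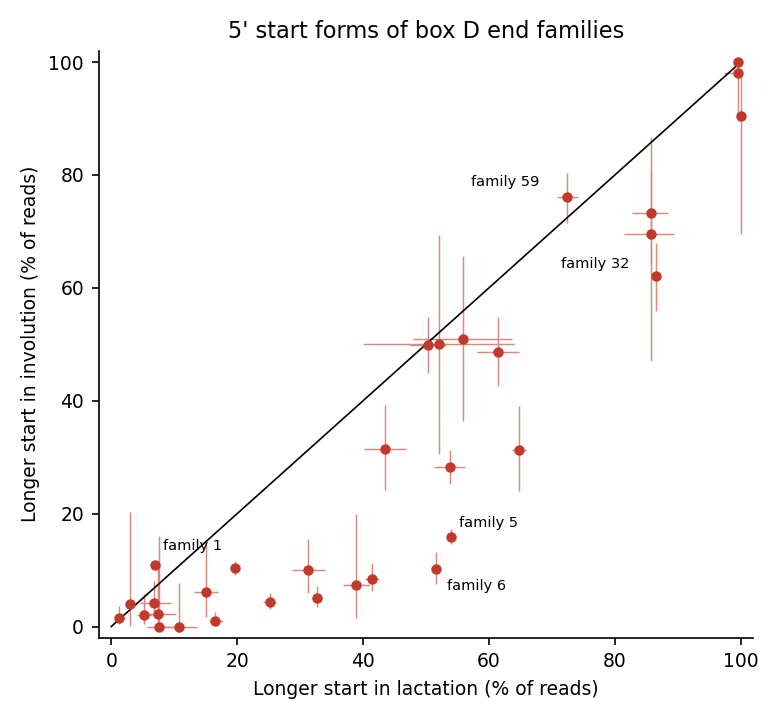
Share of the longer of the 2 commonest 5' starts (percent of reads of both starts) in lactation (horizontal axis) and involution (vertical axis) for 32 box D end families, with exact 95% intervals and the line of equal shares. Points below the line had less of the longer start in involution, as family 5 with 54.0% and 15.9%, and family 1 lies above it.

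Families with letters of ribosomal RNA moved in both directions. Family 2, of 28S letters, stood at 2136 TPM in lactation and 2304 TPM in involution, a ratio of 1.08 (1.06 to 1.10). Family 4, of 18S letters, stood at 1412 and 1547 TPM, a ratio of 1.10 (1.07 to 1.12). With median-of-ratios factors these ratios were 0.842 and 0.855, so their direction depends on the scaling. Family 3, of 28S letters, was lower in involution, at 2885 TPM against 1209 TPM, 2.39-fold (2.33 to 2.44). With lengths of 25 to 31 nt the ratio of family 3 was 0.641 and that of family 2 was 1.78.

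Family 7 and family 10, also of 28S letters, were neither, at 1133 against 656.1 TPM and 677.1 against 489.3 TPM. The ratio of family 10 was 0.723, and it was 1.50 with lengths of 25 to 31 nt and 1.01 with scaling to the tags of 26 to 30 nt alone. Family 16, of 5S letters, stood at 358.4 and 401.7 TPM.

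Of 5 families named here with letters of the ends of 18S ribosomal RNA, 3 were higher in involution, and these 3 were chosen after their ratios were seen. Family 155, whose letters are the 3' end of 18S, stood at 3.16 TPM in lactation and 51.2 TPM in involution, 16.2 times higher (12.2 to 21.8). Family 11, from further upstream in the same 3' region, rose from 140.2 to 999.1 TPM, 7.13 times (6.81 to 7.46). Family 179, whose letters are the 5' end of 18S, stood at 3.60 and 41.8 TPM, 11.6 times higher (8.86 to 15.4). Between families 11 and 155 in the same region, family 30 stood at 214.4 and 217.2 TPM, a ratio of 1.01, and family 48 was 2.05-fold lower (1.88 to 2.24), at 170.6 and 83.1 TPM. Under single linkage, which chains overlapping tags into 1 family, the families that hold these seeds had ratios of 1.998 for families 155 and 11 and 1.05 for family 179.

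Neighbouring stretches of the same RNA could differ. Of 83 pairs of seeds that overlapped by at least 10 bases, 55 had intervals that lay apart and 34 differed by more than 2-fold, and in 3 pairs 1 seed was higher and the other lower. Family 11 overlaps family 30 by 14 bases, and family 30 overlaps family 48 by 15, with ratios of 7.13, 1.01 and 0.487 in that order. Family 8, at 304.6 and 1336 TPM, was 4.39 times higher (4.24 to 4.54), while family 110, which overlaps it by 12 bases, had a ratio of 0.775. Under single linkage the ratio of the family that holds the seed of family 8 was 1.15.

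Among families without a box D end or the adaptor run, the ratio stood out mainly for seeds with the highest G and C content. Of 42 such families with at least 70% G and C, 16 were higher and 0 were lower, with a median ratio of 1.60. Of 98 with under 50% G and C, 22 were higher and 31 were lower, with a median ratio of 0.721. In steps below 70%, the median ratio was 0.723 at under 40%, 0.712 at 40 to 50%, 0.849 at 50 to 60% and 0.850 at 60 to 70%. Only the top step had a median above 1. Box D end families were rich in A and T, with a median of 42.9% G and C. At under 50% G and C, 30 of 37 box D end families were lower, with a median ratio of 0.183. Whether base composition plays a part in the ratios was not tested.

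**Figure D5:**
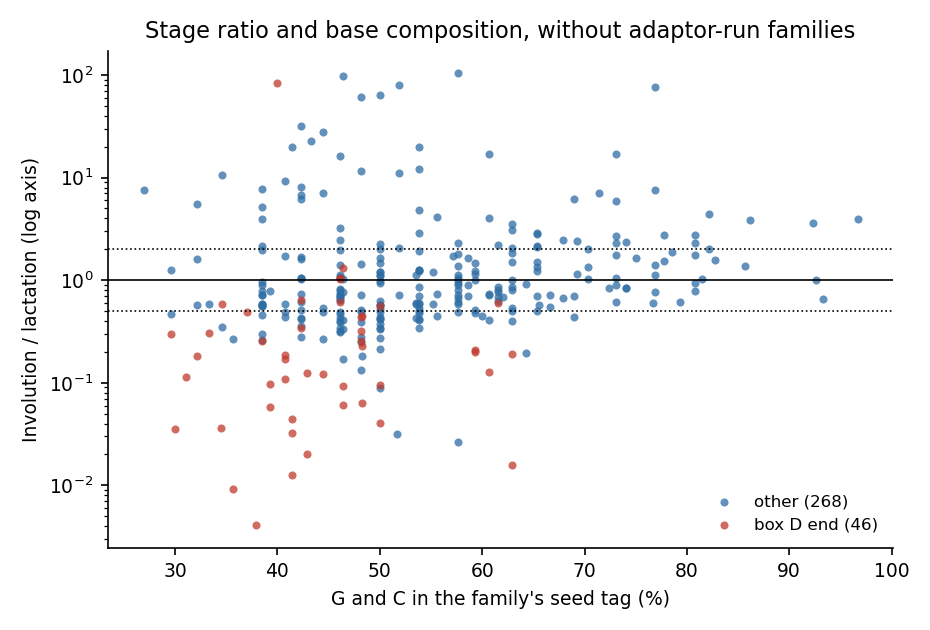
Ratio of involution to lactation (vertical log axis) against the G and C content of the seed (percent, horizontal axis) for 268 families with neither box D end nor adaptor run (blue) and 46 with a box D end (red), with lines at 1 and at 2-fold. At under 50% G and C the box D end families had a median ratio of 0.183 and the rest 0.721.

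The letters of tRNA ends and loops sought here were found in a small share of reads. These matches miss tRNA pieces without such letters. The seed of family 39, of glycine tRNA letters, holds none of them. That family stood at 308.6 TPM in lactation, above the 279.7 TPM of all tags with a CCA end. In involution it stood at 52.5 TPM, below their 437.3 TPM. A CCA end was found on 0.605% of lactation reads and 1.33% of involution reads, and the letters ACC in its place on 1.27% and 1.68%. On the reverse complement a CCA end occurred in 3.46% of reads in both libraries. The T loop letters GTTCNANNC occurred in 0.154% and 0.416% of reads, and the A box in 0.132% and 0.193%. On the reverse complement the T loop letters occurred in 0.925% and 0.276% and the A box in 0.00252% and 0.00822%. The end of an H/ACA snoRNA, ACA followed by the last 3 bases, occurred in 0.339% and 0.567%, and in 2.59% and 2.09% on the reverse complement, so that match is no more frequent on the tag strand.

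Among the tRNA-like families named here the directions differed. Apart from family 39, they were found by a CCA end, T loop letters or an A box. Other families with tRNA letters, among them those from the 5' part or the middle of a tRNA, were not surveyed. The families named here therefore do not give the direction of tRNA fragments as a class. Family 39, the 5' end of glycine tRNA, stood at 308.6 TPM in lactation and 52.5 TPM in involution, 5.87-fold lower (5.30 to 6.53). Its shorter forms of 18 to 25 nt stood at 47.1 and 72.8 TPM, 1.55 times higher (1.39 to 1.73). Family 39 was named after its values were seen. Family 163, from lysine tRNA, stood at 23.3 and 27.8 TPM, a ratio of 1.19 that was 0.930 with median-of-ratios factors.

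At the CCA end, family 168 was 2.30-fold lower (1.87 to 2.85), at 33.6 and 14.6 TPM, and family 229 stood at 9.43 and 17.2 TPM. Family 238, from aspartate tRNA, was 2.02 times higher (1.58 to 2.59), at 8.10 and 16.4 TPM, and its ratio was 1.34 with a shared run of 22 bases. Under single linkage the ratio of the family that holds families 229 and 238 was 0.420, the opposite direction. Family 194 also ended in CCA and stood at 1.83 and 36.0 TPM, 19.7 times higher (13.7 to 29.2). Of the 5 families whose seed ends in CCA, 3 were higher (194, 238 and 339), 1 was lower and 1 was neither. Family 211, chosen by rule for the T loop letters, stood at 13.3 and 18.7 TPM, and its letters are known from 18S ribosomal RNA, not a tRNA.

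Long forms of miRNA-sized tags made up a small part of this length class. Tags that begin with the first 18 bases of an abundant tag of 20 to 24 nt (1000 TPM or more in a library) took 1.11% of lactation reads and 3.86% of involution reads. Without family 2 these shares were 0.479% and 1.29%. Of 36 such short tags, 33 had at least 10 long reads in a library, and in 28 of the 33 there were more long reads per 1000 short reads in involution. Part of these long reads held adaptor letters. Of all such long reads, 2 of 9279 in lactation and 311 of 9385 in involution ended in the last 4 letters of the adaptor run described below. For single short tags that share reached 36.8% of the involution long reads. How far this accounts for the 28 was not tested. Family 72 begins with the letters of miR-451, the erythroid miRNA that is cut by AGO2 in place of Dicer. It stood at 12.9 TPM in lactation and 137.2 TPM in involution, 10.6 times higher (9.20 to 12.3), and 6.99 times with lengths of 25 to 31 nt. The tags of 18 to 25 nt of the same family rose less, from 598.4 to 2833 TPM, 4.74 times (4.63 to 4.85).

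Part of the families called higher held adaptor letters. The seeds of 15 of the 80 higher families carry a 9-base run that is known as the end of the Illumina small RNA 5' adaptor, and all 15 were higher. Together they had 2 reads in lactation and 6797 in involution, 0.111 and 920.3 TPM. All 6 families with the highest ratios by the naming rule, families 43, 104, 119, 120, 131 and 139, were of this kind, and their sequences are not shown. Family 43 had 1 read in lactation and 2140 in involution, and family 104 had 0 and 682. In the deposited filtering logs, 5' adaptor contaminants were 0.0505% of high-quality reads in lactation and 14.03% in involution. Without these 15 families, 65 of 314 were higher (20.7%) and 96 were lower (30.6%). A further 8 families begin or end with the last 4 letters of the run, and 6 of them were higher. Families 346 and 390 begin with a longer stretch of its last letters and are in neither count. All of these remain among the 314 families, so families with adaptor letters were not fully removed. Tags of any family that end in those 4 letters took 0.562% of lactation reads and 3.67% of involution reads. The 10 highest ratios outside the adaptor run among families of at least 20 TPM in a library were chosen after their values were seen and ran from 7.13 times in family 11 to 31.7 times in family 241, and families 220 and 241 among them join the letters of a miRNA to these 4 letters.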

How the data were processed

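Small RNA of goat mammary gland was sequenced in 2 libraries, 1 per stage. Per the labels, RNA of 18 to 30 nt was selected, adaptors were ligated and the product was amplified and sequenced on a Solexa instrument. The deposited values are raw counts of reads per distinct clean tag, after adaptor trimming and removal of tags under 18 nt, per the deposited logs. No tool name, version or mapping step for these was given in the sources used here. Each log was tied to a library by its number of clean reads.

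Counts were scaled to all clean tags. Families were built in order of summed level, each from its most abundant unassigned tag and the tags sharing 18 bases with it. Families of at least 10 TPM were called at a ratio of 2 or 0.5 with the interval beyond 1. Intervals are exact Poisson for levels, exact Clopper-Pearson for shares and conditional Clopper-Pearson for ratios, at 95%, and a count of 0 was taken as 3 counts for bounds. With 1 library per stage no p-value was computed. Short forms are tags of 18 to 25 nt that share 18 bases with a seed.

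Named families are the 10 largest, the 6 highest and 6 lowest ratios at 20 TPM or more, and 3 each with box C and box D, with a CCA end, and with a T loop or A box. Families outside this rule (13, 14, 16, 30, 39, 44, 48, 53, 84, 110, 192, 210, 269, 286, 322, 339, 346, 362, 390 and the 10 highest ratios without the adaptor run) were named after their values were seen. The length class, motifs and naming rule were chosen with earlier results of these data known. Alternatives covered scaling, the filter on reads, thinning of the lactation library, the shared run, the length range, linkage and the level minimum. The ratio interval and the call rule were tested on simulated counts. Grouping was tested on simulated sequences under single linkage only, so the grouping used for the reported families was not itself tested. All values were computed in Python (3.11.15) using numpy (2.4.6), scipy (1.17.1) and, for plots, matplotlib (3.10.9).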

Additional observations from a re-analysis of the deposited data

How the results depend on the processing

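The ratio of involution to lactation for all tags of 26 to 30 nt was 0.713. It was 0.731 scaled to tags of 20 to 24 nt, 0.556 with median-of-ratios factors, 0.660 with tags of at least 2 reads, 0.693 without the first 18 bases of abundant short tags, 0.818 without family 1 and 0.687 without tags that hold the adaptor run, and it kept its direction in each. The last 2 settings, and the removal of families with the adaptor run, were chosen after seeing the data. The number of families higher, 80, was 48 with median-of-ratios factors, 140 scaled to tags of 26 to 30 nt, 130 with lengths of 25 to 31 nt, 24 under single linkage, 147 at 5 TPM and 41 at 20 TPM. The number lower, 96, was 59 scaled to tags of 26 to 30 nt and 53 under single linkage. The number of box D end families lower, 37, stayed within 1.5 times of that value in every alternative run. Under single linkage family 238 turned from 2.02 to 0.420. The cause of these changes was not tested. No paired analysis was possible because each stage has 1 library. With 1 library per stage no setting can show how far the stages differ beyond the spread between animals.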

Other observations

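Some families differ from a larger one by a single base. Families 192 and 233 differ from the seed of family 1 by A13C and A14C, counted from the 5' end. Family 192 had 584 reads in lactation and 46 in involution, 0.192 of its lactation level, near the 0.206 of family 1. Family 233 had 465 reads and 0 reads. Family 322 differs from the seed of family 84 by C16T and had 267 reads and 1 read, against 1989 and 47 reads of family 84. Whether these are copies, alleles or sequencing errors was not tested. Only seeds of equal length were compared. Without the 3 box D end variants found in this way, 34 of 43 box D end families were lower. Family 362, with a seed of 28 nt, was not among the 3, though it differs by a single base from a longer form of family 5.

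Family 13, which holds the letters of the 5' end of a ribosomal RNA, the 5.8S, stood at 625.1 TPM in lactation and 211.4 TPM in involution, 2.96-fold lower (2.80 to 3.12). Its shorter forms of 18 to 25 nt were far more abundant, at 2555 and 1490 TPM.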
